A study of Mus musculus with 4 samples.

Results

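The 50 genes described here encode the machinery that copies DNA in S phase and the enzymes and chromatin factors that work beside it. They were listed by symbol for their roles, with earlier results of these data known, and each matched 1 of the 41214 mouse Ensembl gene identifiers counted in 4 RNA sequencing libraries. All 50 passed the filter on low counts, which 15063 identifiers passed in all. The cells were megakaryocytes, the marrow cells that shed platelets, from C57Bl/6 mice aged 8 weeks, sorted as lineage-negative cells carrying cKit, CD41 and CD61. The libraries were PF4-Cre knockout, PF4-Cre wild-type, ROSA-Cre knockout and ROSA-Cre wild-type, 1 library per group. Knockout refers to Gfi1b, a transcriptional repressor of the megakaryocyte and red cell lineages. Pf4 is a gene of megakaryocytes, and the PF4-Cre allele takes its name from it. The labels give no more on either Cre allele, on the deleted exons or on any pooling of mice, and they give the wild-type libraries of a model the same Cre status as the knockout. A p-value over these libraries measures only their spread, with the Cre models serving as replicates of each other (n = 2 libraries per genotype).

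Before S phase, the origin recognition complex, Cdc6 and Cdt1 load rings of Mcm2 to Mcm7 on DNA, which is called licensing. Cdc45 and the GINS complex then turn each ring into an active helicase, and primase and the polymerases alpha, delta and epsilon synthesise the new strands. The clamp Pcna, its loader RFC, the nuclease Fen1 and the ligase Lig1 keep synthesis processive and join the Okazaki fragments. Many of these genes are transcribed in a wave before S phase under E2F transcription factors. Megakaryocytes are known for rounds of DNA replication without cell division, which make them polyploid.

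The RefSeq promoter windows (build GRCm38.p6), which run from 250 bases before to 50 bases after a gene's start, are shown for Mcm6, which had the most matches to E2F-type motifs, for 3 of the 5 genes with 2 matches and for Fen1. Mcm5, Mcm7 and Dnmt1 had the smallest genotype p of those 5, and the others were Mcm3 and Rfc3. Fen1 had the smallest genotype p of the members without a match. For a gene with several windows, the one with the most E2F-type matches was taken here. The Fen1 window lies upstream of the start of the gene in GENCODE M21 (10204169 on chr19). The Mcm5 window also lies upstream of the start there (75109569 on chr8), and the Mcm7 and Dnmt1 windows lie inside the gene in that annotation. Match positions are counted from the start on which each window was built. Capitals mark TTTCCCGC, TTTGGCGC, TTTCGCGC or TTTGCCGC on either strand. Each window is written 5′ to 3′ on the strand of its gene. The Mcm6 window is chr1:128359656-128359955 on the minus strand, the Mcm5 window chr8:75109259-75109558 on the plus strand, the Mcm7 window chr5:138171834-138172133 on the minus strand, the Dnmt1 window chr9:20952574-20952873 on the minus strand and the Fen1 window chr19:10204344-10204643 on the minus strand.
Mcm6: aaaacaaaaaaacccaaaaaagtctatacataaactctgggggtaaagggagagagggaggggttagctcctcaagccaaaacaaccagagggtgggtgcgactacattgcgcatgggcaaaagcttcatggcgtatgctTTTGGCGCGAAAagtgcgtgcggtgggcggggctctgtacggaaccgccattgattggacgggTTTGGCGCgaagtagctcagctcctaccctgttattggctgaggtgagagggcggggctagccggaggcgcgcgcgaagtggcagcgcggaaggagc
Mcm5: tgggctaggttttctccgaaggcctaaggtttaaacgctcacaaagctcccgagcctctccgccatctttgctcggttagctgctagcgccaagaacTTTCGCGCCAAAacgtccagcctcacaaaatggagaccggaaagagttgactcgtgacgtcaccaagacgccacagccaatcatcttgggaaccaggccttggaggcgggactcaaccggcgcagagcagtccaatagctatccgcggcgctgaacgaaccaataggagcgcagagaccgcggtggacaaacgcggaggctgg
Mcm7: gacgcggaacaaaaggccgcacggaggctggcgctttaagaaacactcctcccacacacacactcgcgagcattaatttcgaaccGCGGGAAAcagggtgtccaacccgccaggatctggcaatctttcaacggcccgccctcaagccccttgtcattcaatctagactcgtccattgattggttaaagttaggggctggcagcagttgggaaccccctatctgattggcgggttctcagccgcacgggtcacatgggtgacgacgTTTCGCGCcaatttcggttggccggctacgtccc
Dnmt1: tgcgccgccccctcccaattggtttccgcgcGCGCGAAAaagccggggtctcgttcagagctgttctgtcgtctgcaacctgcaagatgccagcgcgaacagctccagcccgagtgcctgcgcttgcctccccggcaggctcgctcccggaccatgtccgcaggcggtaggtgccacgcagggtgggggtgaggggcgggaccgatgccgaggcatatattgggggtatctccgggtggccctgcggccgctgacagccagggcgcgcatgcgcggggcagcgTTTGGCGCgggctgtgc
Fen1: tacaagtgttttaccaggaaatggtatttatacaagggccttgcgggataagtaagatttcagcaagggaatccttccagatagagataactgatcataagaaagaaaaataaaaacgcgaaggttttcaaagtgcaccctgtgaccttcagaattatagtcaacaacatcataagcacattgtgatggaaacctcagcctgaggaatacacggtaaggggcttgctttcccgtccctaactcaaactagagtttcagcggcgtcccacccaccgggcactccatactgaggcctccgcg

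In Mcm6 the 3 matches began 110, 106 and 47 bases before the start, and the first pair overlapped on opposite strands. The 2 matches of Mcm5 overlapped in the same way, at 153 and 149 bases before its start. Mcm7 had 1 match 165 bases before and 1 match 16 bases after the start, and Dnmt1 had 1 match 219 bases before and 1 match 33 bases after it. Windows were found for 41 of the 50 members, and 16 of the 41 (39%) held at least 1 match. A gene counted as holding a motif if any of its windows did. Of all 27025 genes with a window 2.6% held one, and of the 10698 tested genes with a window 4.6% did. The form TTTCGCGC stood in 9 members, TTTGGCGC in 7, TTTCCCGC in 6 and TTTGCCGC in 0. Of 23 matches in 1 window per member, 10 lay after the start, 4 within the 100 bases before it and 9 farther upstream. CCAAT, the letters bound by NF-Y, stood in 27 of the 41 member windows (65.9%), against 41.1% of all genes and 42.7% of tested genes. TTTGAA and TTTAAA, letters of the cell cycle homology element, stood in 6 members each (14.6%). TTTGAA stood in 20.2% of all genes and 14.7% of tested genes, and TTTAAA in 14.9% of all genes and 11.0% of tested genes.

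The depth was 59595680 and 61652843 gene counts in the PF4-Cre knockout and wild-type libraries and 21835165 and 24869421 in the ROSA-Cre knockout and wild-type libraries. The smallest count of any member in any library was 186. The counting interval of the ratio lay below 1 for all 50 members in PF4-Cre and for 49 in ROSA-Cre. Of all 15063 tested genes, it lay below 1 for 6086 in PF4-Cre and for 5269 in ROSA-Cre. Gfi1b itself (ENSMUSG00000026815) had 84744 counts in the PF4-Cre library labelled knockout against 10137 in the PF4-Cre library labelled wild-type, and 55122 in the ROSA-Cre library labelled knockout against 5864 in the one labelled wild-type. The count goes against the label, but it sums all exons and cannot show a deletion of some of them. Every direction below therefore rests on the labels. Markers of megakaryocytes, 12 genes, summed to 7599 CPM (counts scaled to the size of the library) in the PF4-Cre knockout library against 6974 CPM in its wild-type library. In ROSA-Cre they summed to 6511 CPM in the knockout library against 9840 CPM in its wild-type library. The list holds Itga2b and Itgb3, the genes of the sorted antigens CD41 and CD61, and Itga2b was its most abundant gene. The sums are therefore no independent check of the cell type. All CPM are on library sizes scaled by edgeR's TMM method.

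The replication genes were lower together in the libraries labelled knockout. Of the 50 members, 41 fell and 0 rose at an adjusted p under 0.05 in edgeR's quasi-likelihood test, where 9.58% of all tested genes fell and 12.6% rose. An unadjusted p under 0.05 was reached by 47 members, all lower, and 0 higher, against 2690 lower and 2870 higher of all 15063 tested genes. The DESeq2 Wald test called 39 members lower and 0 higher, against 1328 and 1675 of those genes. The decrease was moderate in size. The median log2 fold change of the members was -0.57, with a range of -1.01 to -0.15 and an SD of 0.17 over members, against a median of -0.02 and an SD of 0.94 over all tested genes. Summed over the 50 genes, the level was 7675 CPM in the PF4-Cre knockout library against 10563 CPM in its wild-type library, a ratio of 0.727. The sum was 6274 CPM in the ROSA-Cre knockout library against 10122 CPM in its wild-type library, a ratio of 0.620. In bulk RNA, fewer cells in S phase and less of these transcripts per cell cannot be told apart.

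The calls rest on the Cre models acting as replicates and on the Cre model term, which pairs the knockout and wild-type libraries of a model. Without a Cre model term 0 members passed, where 4 of all 15063 tested genes were called lower and 159 higher. The term cannot be kept in fits that leave out a library, which have 1 library in a genotype. In these fits the median log2 fold change of the members ran from -0.75 without the PF4-Cre knockout to -0.45 without the ROSA-Cre knockout, and Orc2, Prim1, Rfc1 and Pole2 moved slightly above 0 in 1 fit each. With no filter on low counts, 21 members passed.

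**Figure D1:**
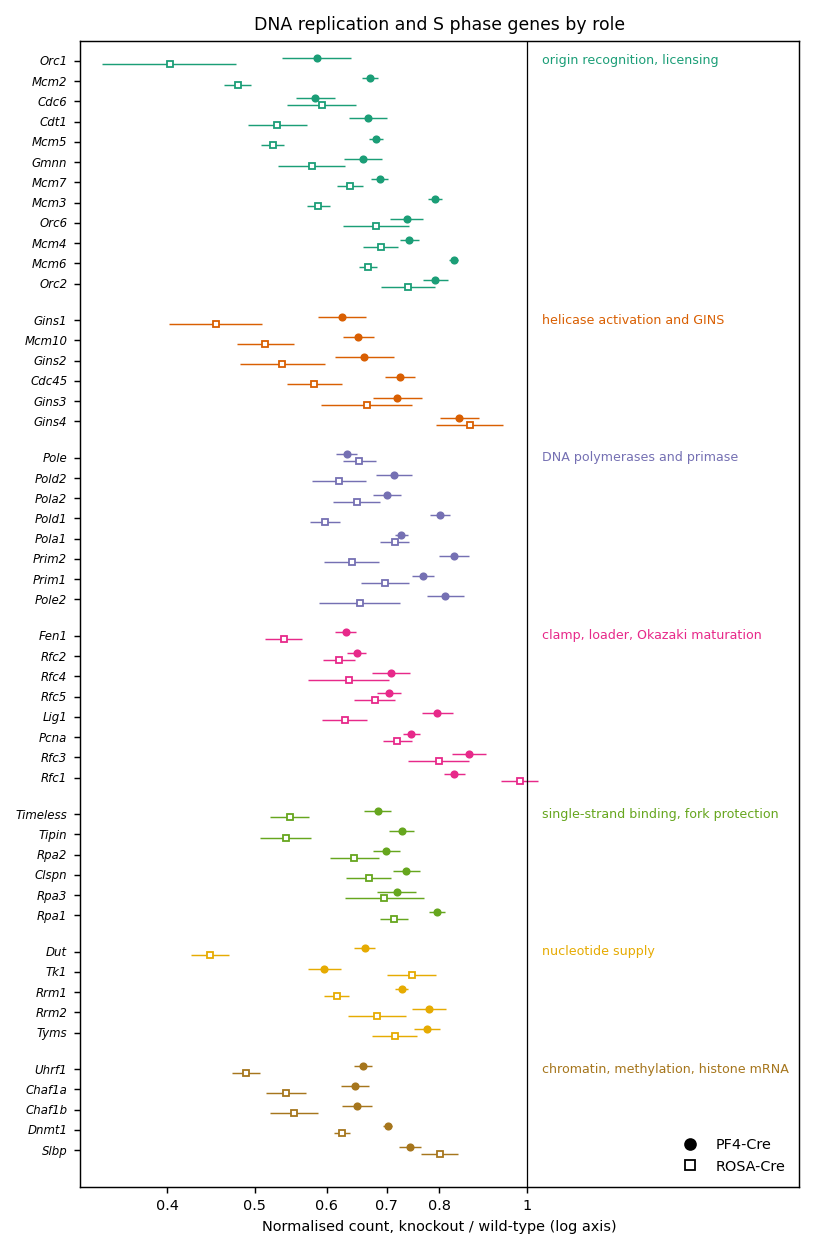
Ratio of the knockout over the wild-type library within each Cre model for each of the 50 genes, on a log axis, grouped by role; filled circles are PF4-Cre, open squares are ROSA-Cre, and bars are 95% Clopper-Pearson intervals for counting error only, with 1 library per group. All 50 ratios lie below 1 in both models, and the ROSA-Cre interval of Rfc1 alone reaches 1.

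Within each model the ratio of the knockout to the wild-type library was below 1 for all 50 members, a pattern that 40.7% of tested genes shared. The PF4-Cre ratios ran from 0.583 for Cdc6 to 0.862 for Rfc3, with a median of 0.715. The ROSA-Cre ratios ran from 0.402 for Orc1 to 0.981 for Rfc1, with a median of 0.636. A decrease of at least 1.5-fold was seen for 14 members in PF4-Cre (8.32% of tested genes) and for 33 members in ROSA-Cre (18.1% of tested genes). Scaling by library totals alone left 6 members past this limit in PF4-Cre. At a limit of 2-fold there were 0 members in PF4-Cre (2.97% of tested genes) and 5 in ROSA-Cre (7.72%), and at a ratio of 0.8 or below there were 43 in PF4-Cre (23.4%) and 47 in ROSA-Cre (30.0%). Both knockout libraries lay below both wild-type libraries for 39 members, against 23.7% of tested genes. The 11 members whose genotypes overlapped across models were Orc2, Orc6, Mcm6, Gins4, Pola1, Prim1, Pole2, Rfc1, Rfc3, Rfc4 and Rpa3.

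**Figure D2:**
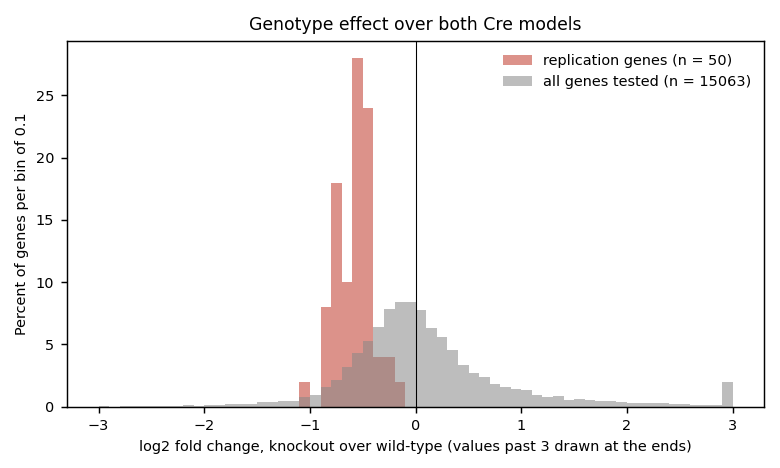
Distribution of the genotype log2 fold change (knockout over wild-type, x axis) from edgeR's fit, as the percent of genes per bin of 0.1 (y axis), for the 50 members and for all 15063 tested genes. The members lie between -1.01 and -0.15 with a median of -0.57, and all tested genes centre on -0.02.

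Origin recognition and licensing held 12 members, of which 10 fell, with a median log2 fold change of -0.64. Cdc6, the ATPase that recruits Cdt1 and the Mcm ring to origins, had 41.9 CPM in the PF4-Cre knockout library against 71.8 CPM in its wild-type library, and 34.1 CPM in the ROSA-Cre knockout library against 57.6 CPM in its wild-type library. The libraries of the 2 genotypes did not overlap, and the log2 fold change was -0.77 with an SE of 0.13 (adjusted p = 0.00962, edgeR). Orc1, the origin recognition subunit whose level varies over the cell cycle, had 13.6 CPM in PF4-Cre knockout against 23.3 CPM in PF4-Cre wild-type and 8.30 CPM in ROSA-Cre knockout against 20.6 CPM in ROSA-Cre wild-type. It was the member with the largest decrease, at -1.01 (SE 0.21, adjusted p = 0.0185, edgeR). Orc2, a core subunit of the same complex, had 115 CPM in PF4-Cre knockout against 145.2 CPM in PF4-Cre wild-type, and 62.4 CPM in ROSA-Cre knockout against 84.5 CPM in ROSA-Cre wild-type. The difference between models exceeded that between genotypes, so that the PF4-Cre knockout library lay above the ROSA-Cre wild-type library, and Orc2 did not pass (-0.39, SE 0.12, adjusted p = 0.0583, edgeR). It shares 29.8% of its exonic length with Nif3l1 on the other strand. Orc6 behaved alike in its order of libraries, with 64.1 CPM in PF4-Cre knockout against 87.1 CPM in PF4-Cre wild-type and 40.04 CPM in ROSA-Cre knockout against 58.8 CPM in ROSA-Cre wild-type, and it passed at -0.50 (SE 0.13, adjusted p = 0.034, edgeR). Cdt1, the Mcm loading factor, and its inhibitor Gmnn (geminin) fell alongside each other, by 0.75 (SE 0.14) and 0.69 (SE 0.14) on the log2 scale.

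The fold changes of the 6 subunits of the Mcm ring ran from -0.82 to -0.43 on the log2 scale. Mcm2 had 249.1 CPM in PF4-Cre knockout against 371.8 CPM in PF4-Cre wild-type, and 211.6 CPM in ROSA-Cre knockout against 442.2 CPM in ROSA-Cre wild-type, a log2 fold change of -0.82 with an SE of 0.15 (adjusted p = 0.0118, edgeR). Mcm5 fell by 0.75 (SE 0.14), Mcm7 by 0.60 (SE 0.12), Mcm3 by 0.55 (SE 0.15) and Mcm4 by 0.48 (SE 0.12) on the log2 scale. Mcm6 gave -0.43 (SE 0.15, adjusted p = 0.0817, edgeR) and did not pass, with a PF4-Cre ratio of 0.829 and a ROSA-Cre ratio of 0.667. Differences between subunits were not tested. Per kilobase of exon, Mcm6 was the most abundant of all 50 members, at 173.6 CPM per kb in PF4-Cre knockout against 209.3 in PF4-Cre wild-type and 112.9 CPM per kb in ROSA-Cre knockout against 169.3 in ROSA-Cre wild-type. On the same scale Orc1 was the lowest, at 3.91 CPM per kb in PF4-Cre knockout against 6.68 in PF4-Cre wild-type and 2.39 CPM per kb in ROSA-Cre knockout against 5.93 in ROSA-Cre wild-type.

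**Figure D3:**
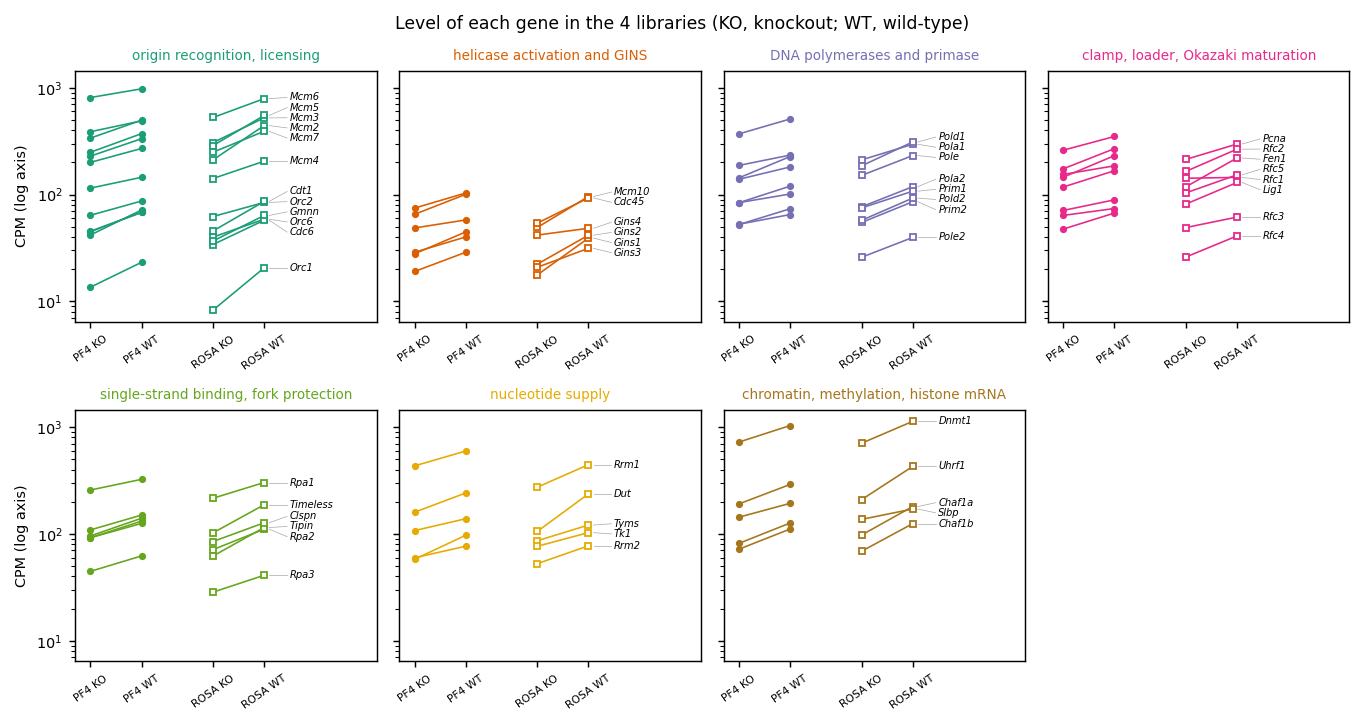
CPM (log axis) of each of the 50 genes in the 4 libraries, 1 panel per role, with a line joining the knockout (KO) to the wild-type (WT) library of each Cre model. Each line rises to the wild-type library, from the near-flat ROSA-Cre line of Rfc1 (142.2 CPM in knockout against 144.9 CPM in wild-type) to the steep one of Orc1 (8.30 CPM in knockout against 20.6 CPM in wild-type).

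Of the 6 genes that turn the licensed ring into a helicase, 5 fell, with a median of -0.68. Mcm10, which helps to activate the helicase, had 65.5 CPM in PF4-Cre knockout against 100.7 CPM in PF4-Cre wild-type, and 49.3 CPM in ROSA-Cre knockout against 96.0 CPM in ROSA-Cre wild-type, a log2 fold change of -0.79 with an SE of 0.14 (adjusted p = 0.0102, edgeR). Cdc45 fell by 0.62 (SE 0.14) on the log2 scale. Within GINS, a complex of 4 subunits, the fold changes spread from -0.90 (SE 0.17) for Gins1 over -0.74 (SE 0.17) for Gins2 and -0.53 (SE 0.15) for Gins3 to -0.23 (SE 0.13) for Gins4. Of the exonic length of Gins2, 67.3% is shared with Gse1 on the other strand. Gins4 had 48.8 CPM in PF4-Cre knockout against 57.9 CPM in PF4-Cre wild-type, and 41.8 CPM in ROSA-Cre knockout against 48.4 CPM in ROSA-Cre wild-type. It did not pass (adjusted p = 0.253, edgeR), and its genotypes overlapped across models.

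Among the polymerases and primase 6 of 8 genes fell, with a median of -0.50. Pole, the catalytic subunit of the leading strand polymerase epsilon, had 143.5 CPM in PF4-Cre knockout against 227.2 CPM in PF4-Cre wild-type, and 151.3 CPM in ROSA-Cre knockout against 231.9 CPM in ROSA-Cre wild-type. The models nearly coincided, and the log2 fold change was -0.64 with an SE of 0.12 (adjusted p = 0.0115, edgeR). Its partner Pole2 had 52.8 CPM in PF4-Cre knockout against 65.1 CPM in PF4-Cre wild-type, and 25.9 CPM in ROSA-Cre knockout against 39.7 CPM in ROSA-Cre wild-type. Here the models lay far apart, and Pole2 did not pass (-0.45, SE 0.15, adjusted p = 0.0684, edgeR). Pola1, the catalytic subunit of polymerase alpha, had 370.2 CPM in PF4-Cre knockout against 510.0 CPM in PF4-Cre wild-type, and 211.3 CPM in ROSA-Cre knockout against 295.9 CPM in ROSA-Cre wild-type, a log2 fold change of -0.47 with an SE of 0.12 (adjusted p = 0.0327, edgeR). Prim1, the catalytic primase subunit that makes the RNA primers, had 139.2 CPM in PF4-Cre knockout against 181.5 CPM in PF4-Cre wild-type, and 75.04 CPM in ROSA-Cre knockout against 107.7 CPM in ROSA-Cre wild-type. It fell by 0.45 on the log2 scale, with an SE of 0.12 (adjusted p = 0.0366, edgeR). Prim2, the other primase subunit, had the same fold change of -0.45 with a wider error (SE 0.14, adjusted p = 0.0579, edgeR) and did not pass. Pola2, Pold1 and Pold2 fell by 0.57, 0.53 and 0.59 on the log2 scale (SE 0.12, 0.14 and 0.13).

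Of the clamp, its loader and the Okazaki fragment enzymes, 6 of 8 fell, with a median of -0.52. Fen1, the nuclease that cuts the flaps of Okazaki fragments, had 145.8 CPM in PF4-Cre knockout against 231.4 CPM in PF4-Cre wild-type, and 118.4 CPM in ROSA-Cre knockout against 220.2 CPM in ROSA-Cre wild-type. Both knockout libraries lay well below both wild-type libraries, and its adjusted p was the smallest of the 50 (log2 fold change -0.78, SE 0.12, adjusted p = 0.00719, edgeR). Of the exonic length of Fen1, 78.8% is shared with Gm10143 on the other strand, which had 14 counts in PF4-Cre knockout against 6 in PF4-Cre wild-type and 48 in ROSA-Cre knockout against 149 in ROSA-Cre wild-type. Rfc1, the large subunit of the clamp loader, stood at the other end, with 154.6 CPM in PF4-Cre knockout against 185.9 CPM in PF4-Cre wild-type, and 142.2 CPM in ROSA-Cre knockout against 144.9 CPM in ROSA-Cre wild-type. Its ROSA-Cre ratio of 0.981 had a counting interval of 0.935 to 1.03, and the fold change did not pass (-0.15, SE 0.12, adjusted p = 0.427, edgeR). Rfc3 had 63.9 CPM in PF4-Cre knockout against 74.1 CPM in PF4-Cre wild-type, and 49.2 CPM in ROSA-Cre knockout against 61.6 CPM in ROSA-Cre wild-type, and it did not pass either (-0.27, SE 0.13, adjusted p = 0.176, edgeR). The other small loader subunits Rfc2, Rfc4 and Rfc5 fell by 0.66, 0.57 and 0.53 on the log2 scale (SE 0.12, 0.14 and 0.12). Rfc4 had 47.6 CPM in PF4-Cre knockout against 67.2 CPM in PF4-Cre wild-type, and 26.1 CPM in ROSA-Cre knockout against 41.1 CPM in ROSA-Cre wild-type. Pcna and Lig1 fell by 0.45 (SE 0.12) and 0.50 (SE 0.14) on the log2 scale. Pcna has a near-identical copy, Pcna-ps2, with 743 counts in PF4-Cre knockout against 1683 in PF4-Cre wild-type and 126 in ROSA-Cre knockout against 199 in ROSA-Cre wild-type. The value of Pcna is therefore uncertain where reads could align to either copy.

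Among the genes that cover single-stranded DNA and guard the fork, 5 of 6 fell, with a median of -0.54. Timeless, which with Tipin holds the helicase and polymerase together at the fork, had 95.8 CPM in PF4-Cre knockout against 140.1 CPM in PF4-Cre wild-type, and 102.4 CPM in ROSA-Cre knockout against 187.4 CPM in ROSA-Cre wild-type, a log2 fold change of -0.71 with an SE of 0.13 (adjusted p = 0.012, edgeR). Tipin fell by 0.67 (SE 0.14) and the checkpoint adaptor Clspn (claspin) by 0.51 (SE 0.12) on the log2 scale. The subunits of RPA, the single-strand binding complex, had fold changes of -0.57 (SE 0.12) for Rpa2, -0.50 (SE 0.14) for Rpa3 and -0.41 (SE 0.12) for Rpa1. Rpa1 had 257.5 CPM in PF4-Cre knockout against 323.9 CPM in PF4-Cre wild-type, and 215.6 CPM in ROSA-Cre knockout against 302.7 CPM in ROSA-Cre wild-type. The genotypes of Rpa1 did not overlap, yet it missed the threshold (adjusted p = 0.0507, edgeR).

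All 5 genes of nucleotide supply fell, with a median of -0.58. Dut, the dUTPase that keeps uracil out of DNA, had 159.8 CPM in PF4-Cre knockout against 241.7 CPM in PF4-Cre wild-type, and 105.5 CPM in ROSA-Cre knockout against 236.8 CPM in ROSA-Cre wild-type, a log2 fold change of -0.88 with an SE of 0.16 (adjusted p = 0.0111, edgeR). Tyms, the thymidylate synthase, had 107.5 CPM in PF4-Cre knockout against 138.7 CPM in PF4-Cre wild-type, and 86.4 CPM in ROSA-Cre knockout against 121.0 CPM in ROSA-Cre wild-type. It had the smallest decrease of the group, at -0.43 (SE 0.12, adjusted p = 0.0427, edgeR). Rrm1 and Rrm2, the large and small subunits of ribonucleotide reductase, fell by 0.58 (SE 0.13) and 0.45 (SE 0.13) on the log2 scale, and Tk1, the thymidine kinase of S phase, by 0.59 (SE 0.14).

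Of the 5 genes of chromatin copying, 4 fell, with a median of -0.74, the lowest of the 7 role groups. Chaf1a, the large subunit of the histone chaperone CAF-1, had 81.6 CPM in PF4-Cre knockout against 126.5 CPM in PF4-Cre wild-type, and 97.7 CPM in ROSA-Cre knockout against 180.4 CPM in ROSA-Cre wild-type, a log2 fold change of -0.76 with an SE of 0.13 (adjusted p = 0.00854, edgeR). Its partner Chaf1b had 72.0 CPM in PF4-Cre knockout against 111.1 CPM in PF4-Cre wild-type, and 68.9 CPM in ROSA-Cre knockout against 124.8 CPM in ROSA-Cre wild-type, a log2 fold change of -0.74 with an SE of 0.13 (adjusted p = 0.00947, edgeR). Chaf1a shares 52.5% of its exonic length with Ubxn6 on the other strand. Chaf1a and Chaf1b had nearly the same fold change in each model, with PF4-Cre ratios of 0.645 and 0.648 and ROSA-Cre ratios of 0.541 and 0.552. Uhrf1, which brings the maintenance methyltransferase Dnmt1 to copied DNA, fell by 0.82 (SE 0.14), and Dnmt1 fell by 0.60 (SE 0.15) on the log2 scale. Slbp, which binds the stem-loop of replication-dependent histone mRNAs, had 143.4 CPM in PF4-Cre knockout against 193.2 CPM in PF4-Cre wild-type, and 136.8 CPM in ROSA-Cre knockout against 171.0 CPM in ROSA-Cre wild-type. Slbp did not pass (-0.38, SE 0.12, adjusted p = 0.059, edgeR).

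The ROSA-Cre ratio was below the PF4-Cre ratio for 44 of the 50 members. Of all tested genes 47.0% had this order, and of the 1443 genes called lower 86.5% did, so the members' share is near that of the genes that fell. The exceptions were Cdc6, Gins4, Pole, Rfc1, Tk1 and Slbp. The log2 ratios differed most between models for Dut (0.57 lower in ROSA-Cre), Orc1 (0.54 lower) and Mcm2 (0.49 lower). Across the members, the log2 ratios of the models had a Pearson r of 0.648 (n = 50 genes, which are not independent replicates), and across all genes with a known length r was 0.718. With 1 library per group the difference between models was not tested.

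The members also differed between the Cre models at equal genotype. At an adjusted p under 0.05 in edgeR's test, 10 members were lower and 0 higher in the ROSA-Cre than in the PF4-Cre libraries, where 10.4% of all tested genes were lower and 8.32% higher. At an unadjusted p under 0.05 there were 16 lower and 3 higher, against 2792 and 2617 of all 15063 tested genes. DESeq2 called 11 members lower and 0 higher, against 1494 and 1142 of those genes. The 10 were Orc2, Prim1, Pola1, Pole2, Rfc4, Orc6, Rpa3, Tipin, Rrm1 and Mcm4, with log2 differences such as -0.83 for Orc2, -0.82 for Prim1 and -0.80 for Pola1. Their transcripts had a GC content of 34.2% to 45.5% (median 43.7%), against 43.0% to 61.0% (median 50.3%) for the other 40 members. Over the members the GC content and the model difference had a Pearson r of 0.786 and a Spearman rho of 0.828 (n = 50 genes sharing the same 4 libraries), and over all genes r was 0.418 and rho 0.589. After a correction of each library for GC content and exonic length, 0 members passed between the models, and the calls over all genes dropped to 431, against 2823 without it. The members' median log2 difference between the models was -0.19 with the correction and -0.22 without it. In the corrected fit 12 members were lower and 1 higher at an unadjusted p under 0.05, and the share of all genes at that limit was not counted. The models also differed in depth, and model, library preparation and depth cannot be told apart. With the same correction 45 members passed as lower between genotypes and 0 as higher, against 1675 and 1849 of the 14949 genes tested in that fit. For the genotype difference the r with GC content was -0.343 and the rho -0.49 over the members, and -0.088 and -0.154 over all genes.

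**Figure D4:**
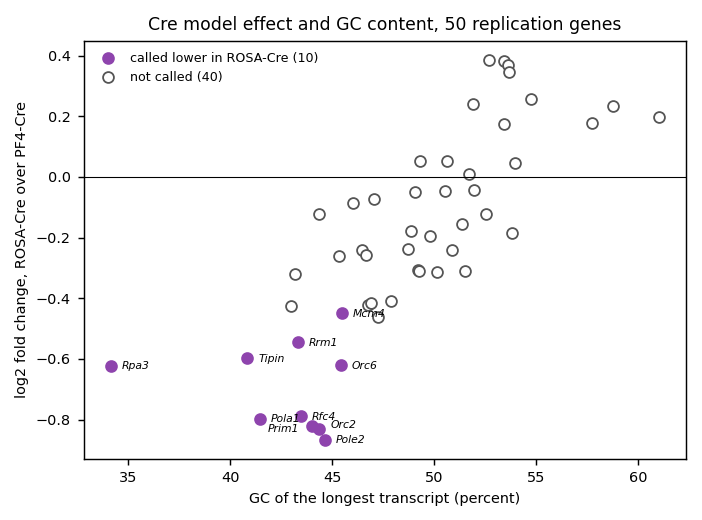
GC content of the longest transcript (x axis, percent) against the log2 difference between the Cre models (ROSA-Cre over PF4-Cre, y axis), for the 50 members; filled points are the 10 members called lower in ROSA-Cre, which are named, and open points the other 40. The 10 lie at a GC content of 34.2% to 45.5%, and the 14 members above 0 at a GC content of at least 49.3%, with an r of 0.786 over all 50.

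Genes around the replication machinery were counted from other lists, where 9.58% of all tested genes fell and 12.6% rose. Of 34 other fork and origin genes 10 fell and 0 rose, with a median of -0.39. They included Chtf18 of the alternative clamp loader (-0.89, SE 0.15, adjusted p = 0.00812, edgeR), the fork scaffold Wdhd1 (-0.61, SE 0.12), the nuclease Dna2 (-0.67, SE 0.13) and the exonuclease Exo1 (-0.62, SE 0.13). Of 19 other nucleotide synthesis genes 12 fell and 2 rose, with a median of -0.52. Cad, which starts pyrimidine synthesis, had 159.7 CPM in PF4-Cre knockout against 267.4 CPM in PF4-Cre wild-type and 138.1 CPM in ROSA-Cre knockout against 361.5 CPM in ROSA-Cre wild-type (-1.06, SE 0.17, adjusted p = 0.00726, edgeR). Shmt2 (-0.92, SE 0.17), the CTP synthase Ctps (-0.85, SE 0.16) and Umps, the last enzyme of UMP synthesis (-0.77, SE 0.14), fell as well. The genes that rose were the mitochondrial thymidine kinase Tk2 (0.72, SE 0.19) and Rrm2b, the ribonucleotide reductase subunit used outside S phase (0.63, SE 0.18).

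Among the regulators of S phase entry, cyclins and inhibitors that passed the test moved in opposite directions. Of 17 genes of the E2F family and its pocket protein partners 5 fell and 1 rose, with a median of -0.29. E2f4 (-0.66, SE 0.15), E2f3 (-0.58, SE 0.14) and E2f1 (-0.74, SE 0.19) fell, and E2f5 rose (0.90, SE 0.22). Of 19 tested G1 and S phase cyclins, kinases and inhibitors 8 fell and 2 rose. The D-type cyclin Ccnd1, which pairs with Cdk4 and Cdk6 in G1, had 30.7 CPM in PF4-Cre knockout against 73.7 CPM in PF4-Cre wild-type, and 14.0 CPM in ROSA-Cre knockout against 64.8 CPM in ROSA-Cre wild-type (-1.71, SE 0.23, adjusted p = 0.0041, edgeR). Ccnd2 also fell (-1.01, SE 0.12, adjusted p = 0.00268, edgeR). The cyclin-dependent kinase inhibitors Cdkn1c (p57) and Cdkn1b (p27) rose. Cdkn1c had 9.88 CPM in PF4-Cre knockout against 1.69 CPM in PF4-Cre wild-type, and 7.86 CPM in ROSA-Cre knockout against 0.691 CPM in ROSA-Cre wild-type (2.83, SE 0.34, adjusted p = 0.00261, edgeR). Cdkn1b had 131.7 CPM in PF4-Cre knockout against 85.0 CPM in PF4-Cre wild-type, and 124.9 CPM in ROSA-Cre knockout against 63.6 CPM in ROSA-Cre wild-type (0.80, SE 0.14, adjusted p = 0.00894, edgeR).

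**Figure D5:**
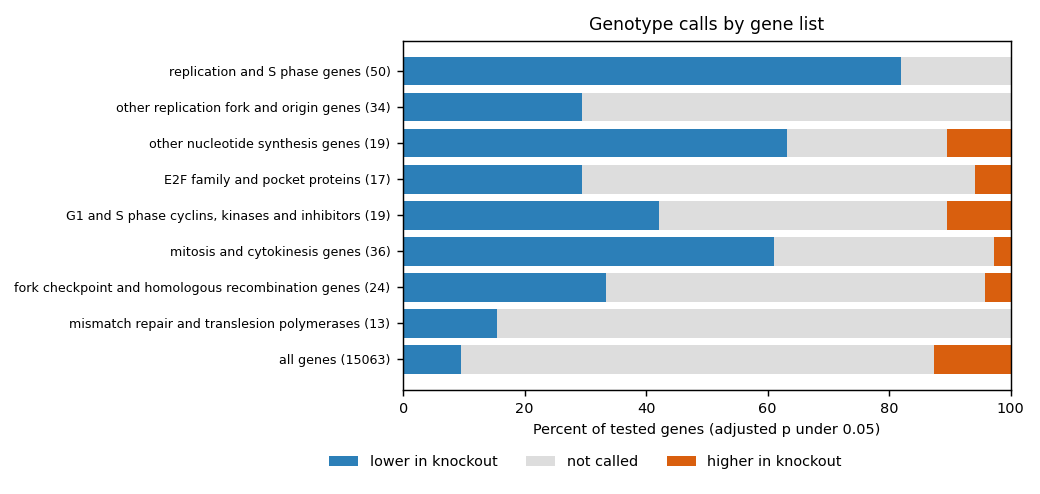
Percent of tested genes called lower, not called and called higher in the knockout libraries (edgeR, adjusted p under 0.05), for the 50 members, 7 other lists and all tested genes, with the number of tested genes in brackets. The part called lower covers 41 of 50 members, 22 of 36 mitosis genes and 12 of 19 other nucleotide genes, against 1443 of all 15063 genes.

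Genes of later cell cycle steps and of DNA repair were counted in the same way, and differences between lists were not tested. Of 36 mitosis and cytokinesis genes 22 fell and 1 rose, with a median of -0.45. Ube2c (-0.92, SE 0.14), which works with the anaphase-promoting complex, the mitotic kinase Aurkb (-0.82, SE 0.13) and the separase Espl1 (-0.82, SE 0.13) fell. The exception was Ect2, an activator of the cytokinetic ring, with 41.6 CPM in PF4-Cre knockout against 19.4 CPM in PF4-Cre wild-type, and 52.4 CPM in ROSA-Cre knockout against 10.6 CPM in ROSA-Cre wild-type (1.66, SE 0.28, adjusted p = 0.00858, edgeR). Of 24 fork checkpoint and homologous recombination genes 8 fell and 1 rose. H2afx (-0.83, SE 0.13), Fanca (-0.74, SE 0.17), Fancd2 (-0.59, SE 0.13) and Rad54l (-0.58, SE 0.12) fell, and Rad51c rose (1.09, SE 0.28). Of 13 mismatch repair and translesion genes 2 fell, the uracil glycosylase Ung (-0.85, SE 0.18) and the polymerase Polq (-0.75, SE 0.13), and 0 rose. Over all tested genes 9.58% fell and 12.6% rose, so 2 of 13 is near the share of all genes that fell.

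Markers of other cells were counted as well, where 9.58% of all tested genes fell and 12.6% rose. The 12 neutrophil genes summed to 1091 CPM in PF4-Cre knockout against 1807 CPM in PF4-Cre wild-type and to 513 CPM in ROSA-Cre knockout against 1954 CPM in ROSA-Cre wild-type, and 5 of them fell and 0 rose. In PF4-Cre, 6 of the 12 had a ratio below 1, with a median ratio of 1.03, and in ROSA-Cre all 12 did, with a median ratio of 0.263. The genes that fell were Mpo, Elane, Prtn3, Ctsg and Ms4a3, of early granules and precursors. Mpo, the myeloperoxidase of neutrophil precursors, had 194.8 CPM in PF4-Cre knockout against 695.5 CPM in PF4-Cre wild-type and 179.3 CPM in ROSA-Cre knockout against 711.0 CPM in ROSA-Cre wild-type. S100a9, an abundant gene of later neutrophils, had 321.9 CPM in PF4-Cre knockout against 263.0 CPM in PF4-Cre wild-type and 69.6 CPM in ROSA-Cre knockout against 242.3 CPM in ROSA-Cre wild-type. The 7 monocyte genes summed to 113 CPM in PF4-Cre knockout against 114 CPM in PF4-Cre wild-type and to 55.8 CPM in ROSA-Cre knockout against 152 CPM in ROSA-Cre wild-type (2 fell, 0 rose), with median ratios of 0.834 in PF4-Cre but 0.440 in ROSA-Cre. The 12 megakaryocyte genes, whose sums are given above, included 3 that fell and 4 that rose, and their median ratio was 1.01 in PF4-Cre but 0.649 in ROSA-Cre. The 14 erythroid genes summed to 987 CPM in PF4-Cre knockout against 964 CPM in PF4-Cre wild-type and to 856 CPM in ROSA-Cre knockout against 796 CPM in ROSA-Cre wild-type (3 fell, 5 rose). These sums hide opposite changes, since the globin genes Hba-a1, Hba-a2, Hbb-bs and Hbb-bt and the haem synthesis gene Alas2 rose and Klf1, Car1 and Rhag fell. The globin genes are near-identical pairs whose reads could align to either gene of a pair. The erythroid and neutrophil genes were named after their values were seen. The median erythroid ratio was 1.26 in PF4-Cre, with 6 of 14 genes below 1, and 0.678 in ROSA-Cre, with 9 of 14 below 1. The 8 genes of early progenitors summed to 356 CPM in PF4-Cre knockout against 308 CPM in PF4-Cre wild-type and to 324 CPM in ROSA-Cre knockout against 220 CPM in ROSA-Cre wild-type (2 fell, 2 rose). The 8 genes of mast cells, basophils and eosinophils summed to 93.8 CPM in PF4-Cre knockout against 85.8 CPM in PF4-Cre wild-type and to 306 CPM in ROSA-Cre knockout against 362 CPM in ROSA-Cre wild-type (1 fell, 2 rose). The 7 lymphoid genes summed to 34.6 CPM in PF4-Cre knockout against 75.8 CPM in PF4-Cre wild-type and to 80.8 CPM in ROSA-Cre knockout against 91.2 CPM in ROSA-Cre wild-type (0 of 5 tested fell or rose). Cd3e, Cd79a, Ms4a1, Ebf1, Pax5 and the mast cell and lymphoid gene Gzmb were at 0 in at least 1 library. The part of these cells in the decrease of the replication genes was not tested.

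The decrease was also set beside the promoter motifs. Of the 16 members with a match 13 fell, with a median log2 fold change of -0.54, of the 25 without a match 21 fell, with a median of -0.57, and of the 9 without a window 7 fell, with a median of -0.66. The difference between these sets was not tested. The absence of a match says only that these letters are not in that window.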

How the data were processed

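RNA from 4 libraries of sorted megakaryocytes was measured by paired-end sequencing of stranded TruSeq mRNA libraries, per the labels' protocols. Builds mm10 and GRCm38 and the tools HTSeq, DESeq, SAMtools and TopHat2 (2.0.10) stand in the submitters' processing notes. The authors deposited raw read counts per Ensembl gene, 1 table per library. Neither the annotation release nor the strand setting of the counting is given in the sources used here. Exons of 8 members share at least 10% of their length with a gene on the other strand (Fen1, Gins2, Chaf1a, Orc2, Rfc2, Rfc4, Orc1 and Rfc5), and those reads cannot be told apart with certainty. Reads set aside as ambiguous between genes were 0.45% to 0.53% of unique reads. Reads without a gene were 32.0% to 36.2% of unique reads and stayed out of library sizes.

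Groups came from sample titles. edgeR 4.0.16 (R 4.3.3) was run with TMM scaling, filterByExpr by genotype (minimum count 10), terms for genotype and Cre model, quasi-likelihood F-tests and Benjamini-Hochberg adjustment over 15063 genes at 0.05. It left 1 residual and 6.26 prior degrees of freedom and a common biological coefficient of variation of 16.1%. Each SE was computed as the size of the log2 fold change divided by root F. Ratios within a model had 1 added as a pseudocount (log2 scale) and carry 95% Clopper-Pearson intervals, which cover counting error only. Coordinates, exonic lengths and GC came from GENCODE M21 (GRCm38). The members and all lists were chosen with earlier results of these data known. Values were given for the members with the smallest p and the highest fold change in each role, the 3 smallest and 3 largest p of all members, up to 6 called between Cre models and the 3 with the largest model difference, and in other lists for up to 4 genes by p and those against the majority. Alternatives were other scalings, the DESeq2 1.42.0 Wald test, filters, the older quasi-likelihood method, a GC and length correction (splines, 4 degrees of freedom), no Cre model term, leaving out each library, and other fold limits and pseudocounts.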

Additional observations from a re-analysis of the deposited data

How the results depend on the processing

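The number of members called lower stayed within 1.5 times of 41 with the GC and length correction, the DESeq2 Wald test, DESeq2 size factors, library totals, the older quasi-likelihood method and a filter at a mean of 5 CPM, ranging over these fits from 32 to 45. It was 21 with no filter on low counts, where 1936 genes were called in place of 3347, and 0 without a Cre model term, where 163 genes were called. Leaving out 1 library at a time gave 509 to 880 called genes and 0 to 0 members, with a median log2 fold change of the members of -0.75 (without the PF4-Cre knockout) to -0.45 (without the ROSA-Cre knockout). These fits have fewer libraries and no Cre model term, and the lone library of a genotype is assumed to vary like the other genotype. The fold change of 4 genes changed sign when 1 library was left out, and the cause was not tested. These 4 genes had ratios below 1 within each model, and a fit without the Cre model term does not hold the models apart. Orc2 ranged from -0.882 (without the PF4-Cre knockout) to 0.0788 (without the PF4-Cre wild-type), Prim1 from -0.947 to 8.25e-05 (without the same 2 libraries), Pole2 from -1.016 (without the PF4-Cre knockout) to 0.00883 (without the ROSA-Cre knockout), and Rfc1 from -0.296 (without the ROSA-Cre wild-type) to 0.0388 (without the PF4-Cre wild-type). Between the Cre models, 0 members were lower after the GC and length correction, and 1 was higher at a mean of at least 5 CPM. The count of members past the fold limit in PF4-Cre was 43 at a ratio of 0.8 or below, 0 at 2-fold and 6 with library totals, against 14 at 1.5-fold, and in ROSA-Cre 5 at 2-fold, against 33. On the forward strand alone, 8 members held an E2F-type match. The Cre model term already pairs the knockout and wild-type libraries of a model, and the labels carry no replicate numbers for another pairing. Depth limits little here, since the floor of 3 counts is 0.0487 to 0.137 CPM.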

Other observations

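Several replication genes share a promoter region with a gene read in the other direction. Within 1000 bases, 11 members had a divergent protein-coding partner, and 10 of these members fell. Of the 11 partners 1 fell and 0 rose, where 9.58% of all tested genes fell and 12.6% rose. The share of partners that fell is thus near that of all tested genes. The median log2 fold change was -0.60 for the members and -0.07 for their partners. Vps35, a subunit of the retromer that starts beside Orc6, had a log2 fold change of -0.07 (SE 0.12), and Prkdc, the DNA-dependent protein kinase that starts beside Mcm4, one of -0.07 (SE 0.12). Ufd1 beside Cdc45 stood at 0.01 (SE 0.14) and Ap4m1 beside Mcm7 at 0.15 (SE 0.14). Smyd4 beside Rpa1 stood at 0.001 (SE 0.18) and Umad1 beside Rpa3 at 0.07 (SE 0.20). Prpf38a beside Orc1 (-0.30, SE 0.12) and Abhd12 beside Gins1 (-0.26, SE 0.14) were lower but did not pass. The partner that fell was Tmem258 beside Fen1 (-0.46, SE 0.13, adjusted p = 0.0402, edgeR), which shares 130 exonic bases with it. Ap4m1, Ufd1, Vps35 and Afmid also share exonic bases with their members (321, 209, 171 and 83 bases), and they did not pass. Pxmp2 beside Pole (-0.88, SE 0.27, adjusted p = 0.0553, edgeR) and Afmid beside Tk1 (1.08, SE 0.33, adjusted p = 0.0528, edgeR) missed the threshold at low counts. Afmid had 131 counts in PF4-Cre knockout against 61 in PF4-Cre wild-type and 87 in ROSA-Cre knockout against 45 in ROSA-Cre wild-type. The difference between members and partners as groups was not tested, and these pairs were picked by position after the members' values were known.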
